A study of Homo sapiens with 12 samples.

Results

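The genes described here are the transcription factors NFE2, NFE2L1, NFE2L2 and NFE2L3, the small MAF proteins MAFF, MAFG and MAFK, and the repressors BACH1 and BACH2. The 9 genes were chosen by name, and each was read from the array row that carries its symbol alone, or from the row with the highest mean where several rows do. Of the 9 genes, 8 had such a row among the 18417 genes tested; MAFK is not analysed here. Levels were measured on 12 Affymetrix Gene 1.0 ST arrays, 3 in each of 4 groups, from the established human lines HEL and UKE1. The labels give erythroleukemia as the cell type of both and JAK2V617F as their genotype, a change that keeps the kinase JAK2 active without cytokine. One group of each line was kept for 6 h without drug, and the other for 6 h with 250 nM ITF2357 (givinostat), an inhibitor of histone deacetylases. Horse serum and hydrocortisone were in the medium of UKE1 and not of HEL, so line and medium cannot be told apart. The arrays of a group are described as independent triplicates and nothing more is said of separate cultures, so each p-value here reflects only how far these arrays spread, which may be technical.

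These factors share a basic leucine zipper and bind DNA as pairs. NFE2, the haematopoietic member, and the widely expressed NFE2L1 (NRF1), NFE2L2 (NRF2) and NFE2L3 (NRF3) pair with a small MAF protein, which has a DNA-binding but no activating domain. NFE2 with its partner drives platelet and globin genes, NFE2L2 drives antioxidant genes and is held back by KEAP1, and NFE2L1 drives proteasome genes. BACH1 and BACH2 pair with the same small MAF proteins at overlapping sites and repress, and haem releases BACH1 from DNA.

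The core of the NFE2 site is TGAGTCA, and that of the antioxidant response element is TGACNNNGC. Both were searched for on both strands in RefSeq promoter windows of 300 bases (GRCh38.p14), from 250 bases before to 50 after an annotated start. Of the 8 measured genes, 7 had a window, 12 windows in all, and NFE2 had none in the sequences used. TGAGTCA was in 1 of these 12 windows, of BACH1, against 4.95% of 35116 windows of all genes, and TGACNNNGC was in 1, of MAFF, against 13.3%. Both windows are shown to let the reader see where these letters occur in 2 of the genes. Beside them is a window of RAB27B, a known platelet target of NFE2, which was picked because it holds TGAGTCA. Of 37 windows of the named list genes 2 held TGAGTCA, one of 2 of RAB27B and one of PSMD2, a share near that of all windows. TGACNNNGC was in 7 of these 37 windows, against 13.3% of all windows. The matches are in capitals, and in MAFF the match is on the other strand and so reads as the reverse complement. A match is a description of the letters, not a bound site, and the arrays do not say which start was used.
BACH1, chr21:29298672-29298971, plus strand, match from base 203: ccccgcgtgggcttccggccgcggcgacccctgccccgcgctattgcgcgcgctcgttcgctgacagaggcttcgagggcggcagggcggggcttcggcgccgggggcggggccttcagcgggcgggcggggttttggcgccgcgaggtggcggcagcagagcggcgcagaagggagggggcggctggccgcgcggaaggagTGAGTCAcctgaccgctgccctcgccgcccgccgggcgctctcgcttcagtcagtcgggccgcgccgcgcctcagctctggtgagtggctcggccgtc
MAFF, chr22:38201744-38202043, plus strand, match from base 129: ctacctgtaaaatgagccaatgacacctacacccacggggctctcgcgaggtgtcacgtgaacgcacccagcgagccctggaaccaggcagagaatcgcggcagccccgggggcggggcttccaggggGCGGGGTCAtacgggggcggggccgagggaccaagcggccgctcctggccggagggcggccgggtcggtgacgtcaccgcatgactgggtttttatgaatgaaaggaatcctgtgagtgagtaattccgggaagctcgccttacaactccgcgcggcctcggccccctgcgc
RAB27B, chr18:54828227-54828526, plus strand, match from base 114: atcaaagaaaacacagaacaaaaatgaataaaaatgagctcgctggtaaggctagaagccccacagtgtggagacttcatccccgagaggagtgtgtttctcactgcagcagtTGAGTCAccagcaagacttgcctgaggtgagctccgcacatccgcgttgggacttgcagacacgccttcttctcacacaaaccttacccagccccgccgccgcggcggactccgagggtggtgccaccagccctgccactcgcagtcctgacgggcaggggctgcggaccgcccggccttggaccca

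Over all rows, Pearson's r was 0.994 to 0.996 between arrays within a group and 0.928 to 0.943 between arrays of different lines. The table has no detection flag, so no gene is called absent. The label of erythroleukemia cells was checked against marker genes, and calls here use the threshold given in the next paragraph. Of 10 erythroid markers listed, 5 were measured. Above the all-gene median in untreated HEL lay 5 of 5 erythroid and 6 of 7 megakaryocyte markers. So did 2 of 7 monocyte and granulocyte and 0 of 5 lymphoid markers. In untreated UKE1 these counts were 2, 7, 4 and 4, in the same order. Levels of different genes are not comparable here, so these counts do not settle the label. All 5 measured erythroid markers were lower in untreated UKE1 than in untreated HEL, among them the factor GATA1 (log2 difference -2.81) and EPB42 (-4.29), a red cell membrane protein with a mean log2 level of 5.52 in UKE1. Of 7 megakaryocyte markers 6 were lower in UKE1 and 1, PPBP, was higher. Of 5 lymphoid markers 4 were higher in UKE1, among them the T-cell genes CD3D (4.84) and CD3E (3.61), and of 7 monocyte and granulocyte markers 3 were higher and 2 lower. Of all genes, 34.4% were called lower and 33.3% higher in untreated UKE1. With the drug 19.9% of all genes fell and 22.6% rose in HEL, and 22.3% fell and 22% rose in UKE1. Of the erythroid markers 3 fell and 1 rose in HEL, and 1 fell in UKE1. Of the megakaryocyte markers 4 fell in HEL and 5 in UKE1. Of the monocyte and granulocyte markers 4 fell in UKE1, CSF1R by 1.44, and none was called in HEL. Of the lymphoid markers 3 fell and 1 rose in UKE1, and 1 fell and 1 rose in HEL. The part of these marker changes in the results below was not tested. In bulk RNA, fewer cells of a type and less RNA per cell cannot be told apart.

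ITF2357 changed 5 of the 8 genes in HEL and 2 of the 8 in UKE1, and NFE2 and MAFG were the 2 that fell in both lines. A gene is said to have risen or fallen where limma's Benjamini-Hochberg adjusted p over all 18417 genes was under 0.05. In HEL, NFE2, NFE2L2 and MAFG fell and NFE2L3 and MAFF rose, against 42.4% of all genes called in that comparison, 22.6% higher and 19.9% lower. In UKE1, where 44.3% of all genes were called, 22% higher and 22.3% lower, none of the 8 rose. The shares of the 8 genes called were 62.5% and 25%, and with 8 genes they were not tested against those of all genes. Of all genes, 27% were called in the same direction in both lines, and of these 8 genes 2 were. Treated arrays did not overlap untreated ones for 6 of the 8 genes in HEL and for 4 in UKE1, against 49% and 53.9% of all genes. Among the 6 was BACH2, not called, with a gap of 0.0013 between its groups in HEL. The median log2 change of the 8 genes was 0.02 in HEL and 0.07 in UKE1, beside -0.01 and 0.01 for all genes.

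**Figure D1:**
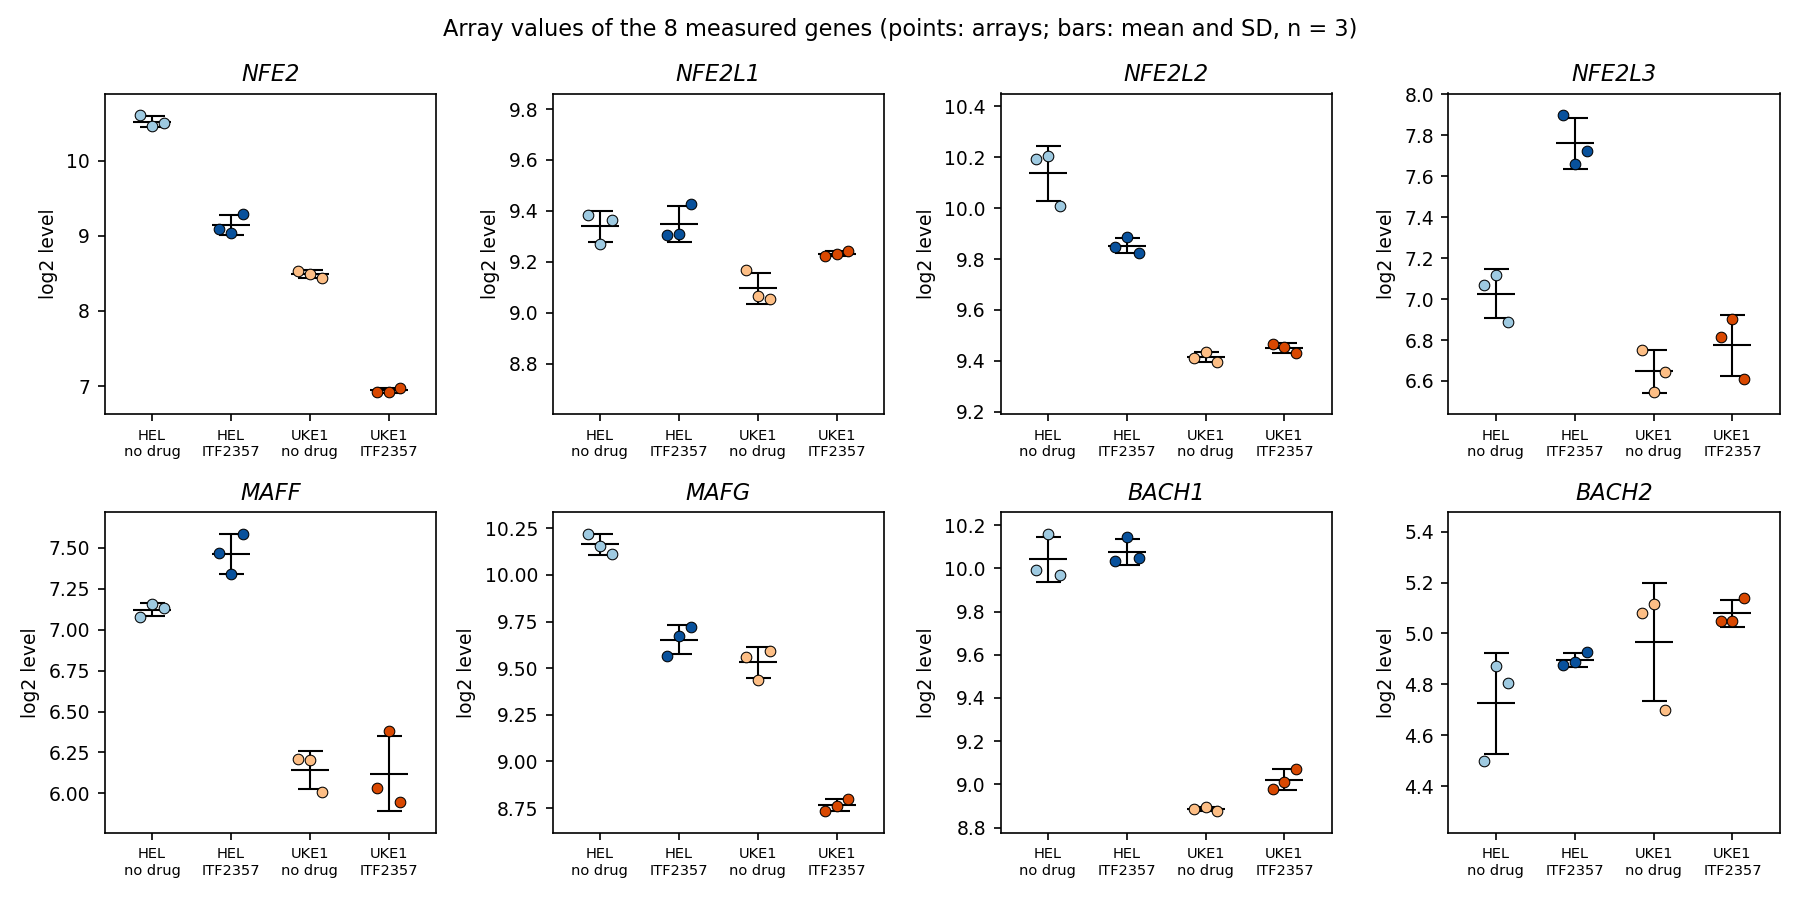
Log2 level of the 8 measured genes on each of the 12 arrays, by line and treatment; points are arrays and bars the mean and SD of 3 arrays, and each panel has its own vertical scale, since levels of different genes are not comparable here. NFE2 steps down from about 10.5 in untreated HEL to about 6.9 in treated UKE1 with no overlap between groups, MAFG falls in both lines, and BACH1 lies about 1.1 lower in UKE1 than in HEL, with its treated UKE1 arrays slightly above the untreated ones.

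NFE2, the haematopoietic subunit of NF-E2, had the largest change of the 8 genes in both lines. In HEL the untreated arrays read 10.61, 10.46 and 10.50, and the treated arrays 9.09, 9.04 and 9.29. In UKE1 the untreated arrays read 8.54, 8.50 and 8.43, and the treated arrays 6.92, 6.92 and 6.98. No 2 of the 4 groups overlapped, and the order was untreated HEL, treated HEL, untreated UKE1 and treated UKE1. NFE2 fell by 1.38 ± 0.073 (SE, log2, adjusted p = 7.05e-09) in HEL and by 1.55 ± 0.073 (adjusted p = 2.15e-09) in UKE1. These were the 56th and the 74th most negative changes among the 18417 genes. The response in UKE1 minus that in HEL was -0.17, with a 95% confidence interval from -0.39 to 0.06, and did not pass the threshold (adjusted p = 0.281). The line difference was larger than the drug effect: untreated UKE1 lay 4.09-fold below untreated HEL (adjusted p = 8.69e-12), and treated UKE1 4.59-fold below treated HEL (adjusted p = 4.27e-12).

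Of the 3 widely expressed relatives of NFE2, NFE2L2 fell and NFE2L3 rose in HEL, and none was called in UKE1. NFE2L1, the activator of proteasome genes, read 9.27 to 9.38 on untreated and 9.30 to 9.43 on treated HEL arrays, which overlapped. In UKE1 it read 9.05 to 9.17 without and 9.22 to 9.24 with the drug, a gap of 0.06 between the groups. Its log2 change was 0.01 ± 0.061 in HEL (95% interval -0.12 to 0.14) and 0.14 ± 0.061 in UKE1 (0.0048 to 0.27, adjusted p = 0.0889), and neither passed the threshold.

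NFE2L2, the antioxidant activator, read 10.19, 10.20 and 10.01 on the untreated HEL arrays and 9.85, 9.89 and 9.83 on the treated ones. The groups did not overlap, and NFE2L2 fell by 0.28 ± 0.062 in HEL (1.22-fold, adjusted p = 0.00185). In UKE1 the untreated arrays read 9.41, 9.44 and 9.40 and the treated arrays 9.47, 9.45 and 9.43, and these overlapped. The change there was 0.04, with a 95% interval from -0.10 to 0.17. The responses differed by 0.32 ± 0.088 (UKE1 minus HEL, adjusted p = 0.0174), a call lost after centring the arrays on their medians over all rows (0.26, adjusted p = 0.0528). The gap between the lines was 1.65-fold without and 1.32-fold with the drug, HEL being higher in both.

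NFE2L3, a relative that is anchored in the endoplasmic reticulum membrane, moved the other way. The untreated HEL arrays read 7.07, 7.12 and 6.89 and the treated ones 7.90, 7.66 and 7.72. In UKE1 the values were 6.75, 6.54 and 6.64 without and 6.81, 6.90 and 6.61 with the drug, and the groups overlapped. NFE2L3 rose by 0.73 ± 0.094 in HEL (1.66-fold, adjusted p = 1.8e-05), which 8.96% of all genes exceeded in size. Its change in UKE1 was 0.13 ± 0.094 (95% interval -0.07 to 0.33), and the responses differed by -0.61 ± 0.13 (adjusted p = 0.0045). Treated HEL was the highest of the 4 groups, 1.98-fold above treated UKE1.

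The small MAF partners split. MAFG, the partner shared by NFE2 and its relatives, read 10.22, 10.16 and 10.11 on untreated and 9.57, 9.67 and 9.72 on treated HEL arrays. On UKE1 arrays it read 9.56, 9.44 and 9.59 without and 8.73, 8.76 and 8.80 with the drug. Treated HEL and untreated UKE1 overlapped, and the other groups did not. MAFG fell 1.43-fold in HEL (0.51 ± 0.064 on the log2 scale, adjusted p = 1.59e-05) and 1.70-fold in UKE1 (0.77 ± 0.064, adjusted p = 3.43e-07), the second clearest change of the 8 genes in UKE1. The 3 array rows named MAFG all fell, by 0.38 to 0.51 in HEL and by 0.40 to 0.77 in UKE1.

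Whether MAFG fell more in UKE1 depended on the processing. The difference of its responses was -0.25 ± 0.091 (adjusted p = 0.0594). It was called in 6 of 21 alternative settings, among them those without HEL ITF2357 replicate 1 (-0.30, adjusted p = 0.0435) and without UKE1 untreated replicate 2 (-0.30, adjusted p = 0.0379). The row with the lowest mean gave -0.02.

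MAFF, the small MAF protein best known as inducible, read 7.08, 7.16 and 7.14 on untreated and 7.47, 7.34 and 7.59 on treated HEL arrays. It rose 1.27-fold in HEL (0.34 ± 0.10, adjusted p = 0.0162). That call was lost without HEL untreated replicate 1 (0.32, adjusted p = 0.0512) or HEL ITF2357 replicate 3 (0.28, adjusted p = 0.0721). In UKE1 the values were 6.21, 6.21 and 6.01 without and 6.03, 6.38 and 5.95 with the drug, and they overlapped. The change there was -0.02, with a 95% interval from -0.24 to 0.20. The responses differed by -0.36 ± 0.15 (adjusted p = 0.0957), and by -0.49 (adjusted p = 0.0112) without UKE1 ITF2357 replicate 2, the highest treated array.

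**Figure D2:**
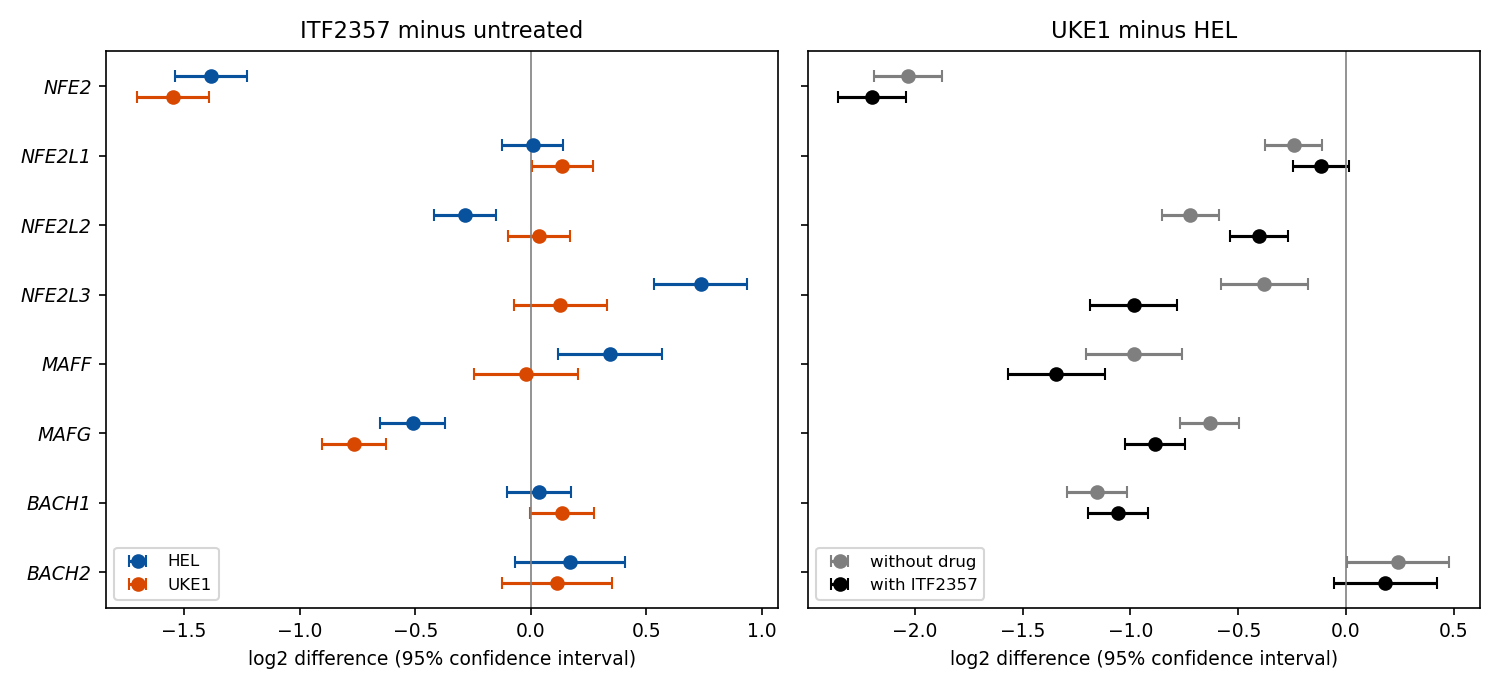
Log2 differences of the 8 genes with 95% confidence intervals from the limma fit of all 12 arrays; left, ITF2357 minus untreated in each line, and right, UKE1 minus HEL without and with the drug. The intervals of NFE2 and MAFG lie below 0 in both lines, those of NFE2L2, NFE2L3 and MAFF exclude 0 in HEL and include it in UKE1, and 7 of the 8 genes lie below 0 at right.

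The BACH repressors showed no called response to the drug. BACH1, the haem-sensitive repressor, read 9.99, 10.16 and 9.97 on untreated and 10.04, 10.15 and 10.05 on treated HEL arrays. In UKE1 it read 8.89, 8.90 and 8.88 without and 8.98, 9.01 and 9.07 with the drug, groups that did not overlap. The log2 changes were 0.03 ± 0.065 (95% interval -0.10 to 0.17) in HEL and 0.13 ± 0.065 (-0.0044 to 0.27, adjusted p = 0.112) in UKE1. After quantile normalization over all rows, the UKE1 changes of BACH1 (0.17, adjusted p = 0.0342) and NFE2L1 (0.17, adjusted p = 0.0304) were called. BACH2, a repressor best known from lymphocytes, read 4.50 to 4.87 and 4.87 to 4.93 in HEL and 4.70 to 5.12 and 5.05 to 5.14 in UKE1, without and with the drug. Its changes were 0.17 ± 0.11 in HEL (95% interval -0.07 to 0.41) and 0.11 ± 0.11 in UKE1 (-0.12 to 0.35).

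Before any drug, 7 of the 8 genes were lower in UKE1 than in HEL, against 34.4% of all genes called lower and 67.7% called either way. NFE2 was followed by BACH1 (2.23-fold, adjusted p = 1.19e-09), MAFF (1.98-fold, adjusted p = 1.23e-06), NFE2L2 (1.65-fold) and MAFG (1.55-fold, adjusted p = 8.15e-07). NFE2L3 (1.30-fold, adjusted p = 0.00263) and NFE2L1 (1.18-fold, adjusted p = 0.0029) differed least. The 3 array rows named MAFG gave log2 differences of -0.63 to -0.35, beside -0.38 for NFE2L3, so the place of MAFG depended on the row. For each of these 7 genes the untreated arrays of the lines did not overlap, against 69.4% of all genes. BACH2 was the exception, with a difference of 0.24 (UKE1 minus HEL), overlapping arrays and an adjusted p of 0.0676, where 33.3% of all genes were called higher. It was called without HEL untreated replicate 2 (0.32, adjusted p = 0.0332) or UKE1 untreated replicate 3 (0.37, adjusted p = 0.00417). With the drug in both lines 6 of the 8 genes were lower in UKE1, against 34% of all genes called lower and 68% called either way. NFE2L1 then differed by -0.12 (adjusted p = 0.108) and BACH2 by 0.18 (adjusted p = 0.157), neither called. The treated arrays of the lines did not overlap for any of the 8 genes, against 72.3% of all genes.

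The responses of the lines differed for 2 of the 8 genes, NFE2L2 (more positive in UKE1) and NFE2L3 (more negative), against 23.9% of all genes, 10.1% more positive and 13.8% more negative. Of all genes called, 42.2% had the more positive response in UKE1, a share that was 30.6% after median centring over all rows and 51.4% after median centring over the genes tested.

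Genes whose 4 group means lay closest to those of a factor were found by Euclidean distance after centring each gene on its own mean, over the 4 groups. For NFE2 these were SLFN14 (distance 0.20), CD244 (0.24), SUSD1 (0.31), SLC37A1 (0.33) and SNORA24 (0.36), against a median distance of 2.62 over all genes. SLFN14, a ribosome-associated nuclease, changed by -1.44 in HEL and -1.32 in UKE1, and CD244, a receptor of natural killer cells, by -1.18 and -1.29. For MAFG the closest were SMG8 (0.04) and the adhesion molecule PECAM1 (0.07), for NFE2L3 the histone gene H2AC11 (0.08) and CCDC87 (0.08), and for NFE2L2 CYTL1 (0.03) and CD320 (0.03). MAFF lay closest to L3MBTL1 (0.02) and P2RY2 (0.05), and BACH1 to TAFA3 (0.03) and RGS9BP (0.03). The nearest to NFE2L1 were COX5A (0.01) and C1orf105 (0.02), and to BACH2 ASL (0.01) and NAT14 (0.02). The median distance of all genes was 0.54 from both NFE2L1 and BACH2, so short distances there say less than they do for NFE2.

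More of the regulators of NFE2L2 and NFE2L1 fell than rose. Of 20 measured genes 7 fell and 4 rose in HEL, and 11 fell and 5 rose in UKE1. Of all genes 19.9% fell and 22.6% rose in HEL, and 22.3% fell and 22% rose in UKE1. KEAP1, the adaptor that hands NFE2L2 to a ubiquitin ligase, read 10.51, 10.49 and 10.57 on untreated and 9.32, 9.35 and 9.46 on treated HEL arrays. In UKE1 it read 9.28, 9.43 and 9.25 without and 8.43, 8.27 and 8.39 with the drug. KEAP1 fell 2.21-fold in HEL (adjusted p = 2.51e-08) and 1.94-fold in UKE1 (adjusted p = 1.02e-07), with no overlap in either line. CUL3, the scaffold of the ligase that KEAP1 serves, changed by -0.04 and 0.00213, neither called. RBX1, another subunit of that ligase, had means of 9.05 without and 8.62 with the drug in HEL. In UKE1 its means were 9.60 and 9.01, and the groups did not overlap in either line. HCFC1, which with OGT stabilises NFE2L1, fell by 1.04 and 1.52, and CUL1, the scaffold of SCF ligases, fell by 0.64 and 1.46. DPP3, which competes for KEAP1, fell by 0.71 and 0.64, and TRIM21, a ligase, changed by -0.15 in HEL and fell by 0.84 in UKE1. The genes that rose in both lines were SKP1, SYVN1, DCAF11 and FBXW7, and in UKE1 also FBXO22, a ligase subunit that targets BACH1. These 5, CUL3 and RBX1 were named after their values were seen. Not all of the 7 genes that fell in HEL and the 11 in UKE1 are named here.

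Antioxidant and detoxification targets of NFE2L2 went both ways. Of 23 measured genes 5 rose and 7 fell in HEL, and the same counts held in UKE1. That is 52.2% called in each line, beside 42.4% and 44.3% of all genes. HMOX1, the haem-degrading oxygenase that BACH1 represses, moved in opposite directions. It read 9.58, 9.60 and 9.72 on untreated and 8.37, 8.24 and 8.55 on treated HEL arrays, a 2.37-fold fall (adjusted p = 2.46e-08). In UKE1 it read 5.99, 6.04 and 6.04 without and 6.48, 6.39 and 6.42 with the drug, a 1.33-fold rise (adjusted p = 0.00046), and the responses differed by 1.65 (adjusted p = 3.32e-07). The groups did not overlap in either line.

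SRXN1, which repairs oxidised peroxiredoxins, rose in both lines but far more in UKE1. It read 10.21, 10.25 and 10.29 without and 10.70, 10.63 and 10.66 with the drug in HEL, against 6.20, 6.37 and 6.32 and then 8.45, 8.42 and 8.37 in UKE1. The rise was 1.33-fold in HEL (adjusted p = 6.47e-05) and 4.32-fold in UKE1 (adjusted p = 6.76e-11), and the responses differed by 1.70 (adjusted p = 6.61e-08). Treated UKE1 still lay below untreated HEL.

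NQO1, the quinone reductase used as a readout of NFE2L2, read 7.63, 7.52 and 7.53 without and 6.50, 6.26 and 6.34 with the drug in HEL, a 2.29-fold fall (adjusted p = 3.78e-07). In UKE1 it read 5.70, 5.69 and 5.57 and then 5.41, 5.61 and 5.16, and these arrays overlapped. Its log2 change there was -0.26 (adjusted p = 0.048). Leaving out any array except HEL ITF2357 replicate 1, UKE1 untreated replicate 3 or UKE1 ITF2357 replicate 2 ended that call, with changes of -0.27 to -0.14. SLC7A11, the cystine importer, fell by 0.87 in HEL and by 0.65 in UKE1, and ABCC1, an efflux pump, fell by 0.43 and 0.71. GCLC, the rate-limiting enzyme of glutathione synthesis, rose by 0.70 in UKE1, while TXNRD1, thioredoxin reductase, fell there by 0.50. The other genes that rose in HEL were PRDX1 (0.26), EPHX1 (0.32), UGDH (0.38) and GCLC (0.17), and in UKE1 EPHX1 (0.65) and PGD (0.26), each but GCLC named after its values were seen. Not all of the 7 genes that fell in each line are named here. The HEL call of GCLC was lost in 10 of 22 settings, among them without HEL untreated replicate 2 or 3, HEL ITF2357 replicate 2 or 3, UKE1 untreated replicate 2 or any 1 UKE1 ITF2357 array (0.13 to 0.19).

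**Figure D3:**
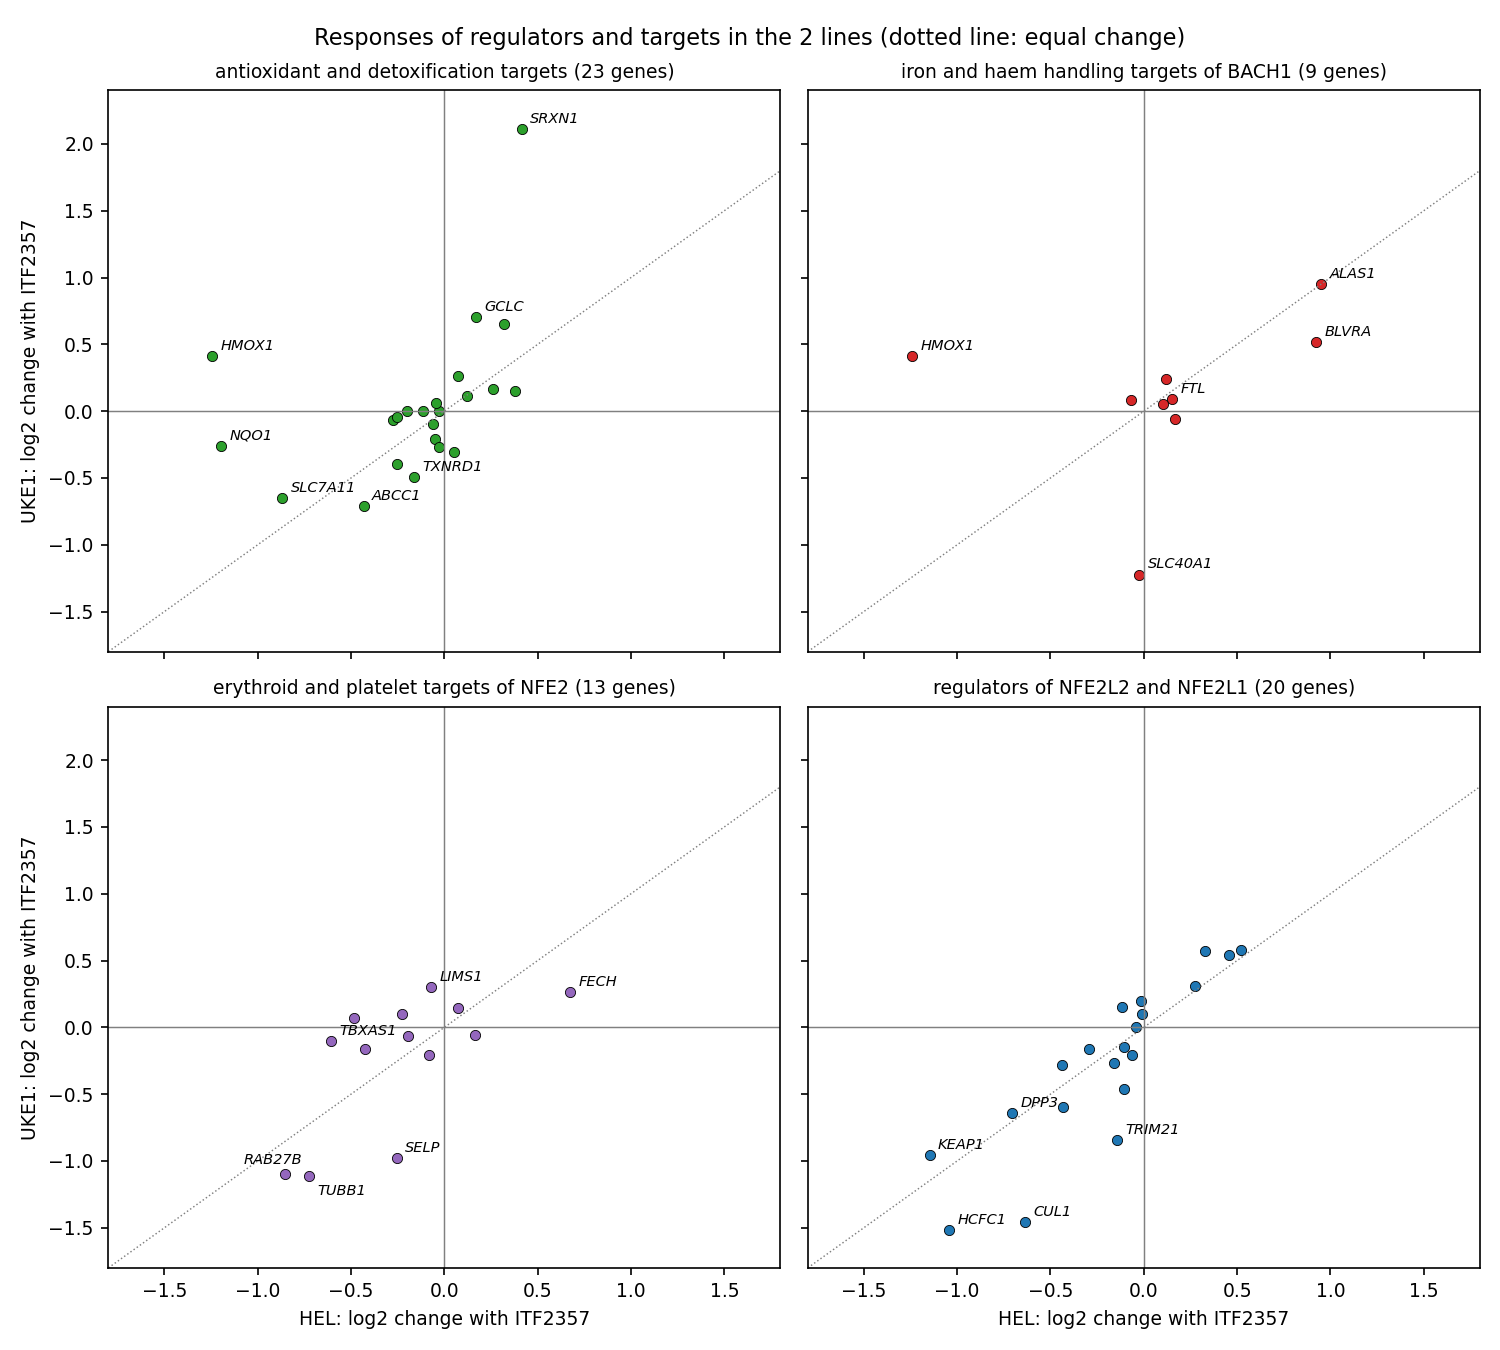
Log2 change with ITF2357 in HEL (horizontal) against UKE1 (vertical) for the measured genes of 4 lists; each point is 1 gene and the dotted line marks equal change. KEAP1, HCFC1 and CUL1 lie low in both lines, SRXN1 stands out above the line, and RAB27B and TUBB1 lie in the lower left. HMOX1, called lower in HEL and higher in UKE1, lies in the upper left, as does LIMS1, called in UKE1 alone.

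Among 9 measured iron and haem genes that BACH1 is known to repress or that handle haem, 3 rose and 1 fell in each line. The share called, 44.4%, was near that of all genes (42.4% in HEL and 44.3% in UKE1). ALAS1, the first enzyme of haem synthesis, rose 1.93-fold in both, from 9.72 ± 0.061 to 10.67 ± 0.040 (SD, n = 3) in HEL and from 9.10 ± 0.097 to 10.06 ± 0.077 in UKE1. BLVRA, which converts biliverdin to bilirubin, rose 1.90-fold in HEL and 1.43-fold in UKE1. SLC40A1, the iron exporter ferroportin, changed by -0.02 in HEL and fell 2.34-fold in UKE1 (adjusted p = 2.43e-08), from 8.64, 8.68 and 8.51 to 7.25, 7.52 and 7.39. FTL, the ferritin light chain, rose by 0.15 in HEL (adjusted p = 0.0488), a call lost in 15 of 22 settings, among them without any 1 array except UKE1 ITF2357 replicates 1 and 3 (0.14 to 0.16). Before the drug 8 of these 9 genes were lower in UKE1, against 34.4% of all genes called lower and 67.7% called either way. HMOX1 (-3.61), SLC40A1 (-2.70) and BLVRA (-2.56) were among the 8. The exception was SLC48A1, a haem transporter (0.50 higher, named after its value was seen). The list's median line difference was -1.42, beside -0.00047 for all genes.

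Of 23 antioxidant genes 12 were lower and 6 higher in untreated UKE1, against 34.4% and 33.3% of all genes. The most negative differences were those of SRXN1 (-3.95), HMOX1 (-3.61) and SLC7A11 (-3.08). The most positive were those of ME1 (4.42), the cytosolic malic enzyme, AKR1C1 (1.59), an aldo-keto reductase, and TXN (0.97), thioredoxin, named after their values were seen. NQO1 differed by -1.91 and ABCC1 by 0.80. The list's median was -0.26.

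**Figure D4:**
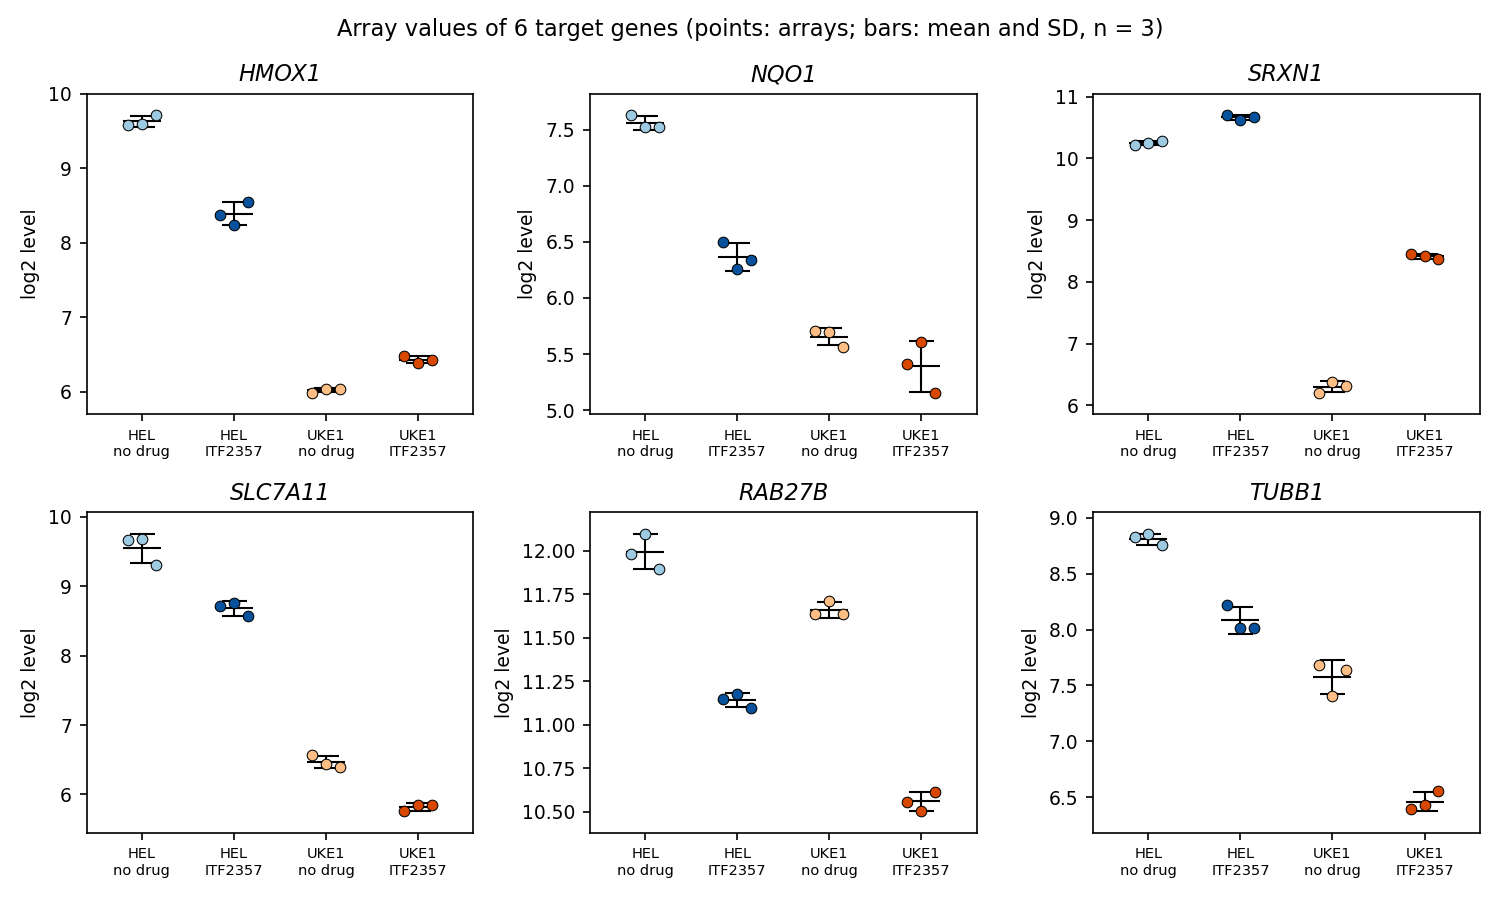
Log2 level of 6 target genes on each of the 12 arrays; points are arrays and bars the mean and SD of 3 arrays, with a separate vertical scale for each gene. HMOX1 falls in HEL and rises in UKE1, SRXN1 rises by about 2.1 in UKE1, and RAB27B and TUBB1 are lower on all treated arrays than on the untreated arrays of the same line.

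Among 13 measured erythroid and platelet targets of NFE2, 7 fell and 1 rose in HEL, and 4 fell and 2 rose in UKE1. The shares called were 61.5% and 46.2%, beside 42.4% and 44.3% of all genes, so that in UKE1 was near the background. RAB27B, the small GTPase of platelet granules whose window is printed above, read 11.98, 12.10 and 11.90 without and 11.15, 11.18 and 11.10 with the drug in HEL. In UKE1 it read 11.63, 11.71 and 11.63 and then 10.56, 10.50 and 10.61. It fell 1.81-fold (adjusted p = 1.58e-07) and 2.15-fold (adjusted p = 1.34e-08), with no overlap. TUBB1, the platelet-specific beta-tubulin, fell by 0.73 in HEL and 1.11 in UKE1, and SELP, P-selectin, by 0.25 and 0.98. TBXAS1, thromboxane synthase, fell by 0.60 in HEL and changed by -0.11 in UKE1. ITGA2B, the fourth gene that fell in UKE1, fell by 0.21 and was named after its value was seen. FECH, the last enzyme of haem synthesis, rose by 0.67 in HEL and 0.26 in UKE1, and LIMS1 rose by 0.30 in UKE1. HBB, a globin gene, changed by 0.16 and -0.06, neither called, and was also named after its values were seen. The median change of the list was -0.23 in HEL and -0.06 in UKE1. In untreated UKE1 9 of the 13 were lower than in HEL and 1 was higher, against 34.4% and 33.3% of all genes. ITGA2B, PF4 and PPBP are also in the list of megakaryocyte markers, of which 4 of 7 fell in HEL and 5 of 7 in UKE1.

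Proteasome genes, the targets of NFE2L1, changed in both directions. Besides subunit genes, the list holds the activator PSME4 and the assembly factor POMP. Of 30 measured genes 6 rose and 11 fell in HEL, and 3 rose and 9 fell in UKE1, with medians of -0.07 and -0.05. The shares called were 56.7% and 40%, beside 42.4% and 44.3% of all genes. The count that fell in HEL was 6 without HEL untreated replicate 1, and that in UKE1 was 3 without UKE1 ITF2357 replicate 3. The count that rose in UKE1 was 1 without UKE1 untreated replicate 3 or UKE1 ITF2357 replicate 2. PSMB5, the chymotrypsin-like catalytic subunit, fell by 0.65 in HEL (adjusted p = 1.25e-05) and 0.82 in UKE1 (adjusted p = 1.24e-06), and PSMA7 fell by 0.46 and 0.42. PSMD2, a base subunit of the regulatory particle, rose by 0.42 and 0.36. PSMD11 fell by 0.37 and 0.20 and PSMC4 by 0.21 and 0.27. The call of PSMD11 in UKE1 was lost without UKE1 untreated replicate 1 or UKE1 ITF2357 replicate 2 or 3 (-0.19 to -0.16). That of PSMC4 in HEL was lost without HEL untreated replicate 1 or HEL ITF2357 replicate 1 or 2 (-0.20 to -0.17) and with HEL fitted alone. The other genes that rose in UKE1 were PSMA6 (0.23) and PSMB1 (0.19), named after their values were seen. Not all of the 11 genes that fell in HEL and the 9 in UKE1 are named here.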

How the data were processed

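The authors deposited 1 table of 33297 rows and 12 arrays, made with Affymetrix Expression Console and RMA per the submitters' processing notes. No version is stated in the sources used. RMA corrects background, normalizes by quantiles and summarises the probes of a row. The deposited values were read as log2 from their range of 1.26 to 14.36, since no label states the base. Precision is limited by having 3 arrays a group. GEO's platform annotation gave 19460 rows 1 gene symbol, 1754 several and 12083 none; 769 genes had more than 1 row, and the row with the highest mean was kept. Genes without a single-symbol row are not analysed here.

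With limma 3.58.1 in R 4.3.3, a linear model with a mean for each group and moderated variances (8 residual degrees of freedom) was fitted to the 12 arrays, two-sided, with Benjamini-Hochberg adjustment over 18417 genes. Errors of changes are standard errors. The fit was tested on simulated data. The factors and the 6 lists of regulators and targets were chosen with earlier results of these data known. Named were all factors, the up to 4 genes of each list with the smallest p-values in each line, and the 5 nearest patterns of NFE2 and 2 of each other factor. Other settings tried were scaling, a filter at a mean of 5, the replicate block, each line alone, the spread estimate, the row per gene, and each array left out. Same-numbered arrays did not deviate together (correlations of -0.11 to 0.0001), so the numbers were not taken to pair the samples.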

Additional observations from a re-analysis of the deposited data

Results flagged for a closer look

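The responses of the lines differed, by the interaction term of the limma fit (adjusted p under 0.05), for 2 of the 8 factors. That is 25%, near the 23.9% of all genes called for this difference. NFE2L2 had a difference of 0.32 (UKE1 minus HEL, log2) and NFE2L3 of -0.61, both described above. Among the regulators, the difference was -0.47 for HCFC1, -0.82 for CUL1 and -0.70 for TRIM21, each a more negative response in UKE1. Among the antioxidant genes it was 1.65 for HMOX1, 0.93 for NQO1, 1.70 for SRXN1 and 0.53 for GCLC, and -0.33 for TXNRD1 and -0.28 for ABCC1. Among haem and iron genes it was -0.41 for BLVRA and -1.20 for SLC40A1. Among NFE2 targets it was -0.41 for FECH, 0.50 for TBXAS1, -0.39 for TUBB1, -0.73 for SELP and 0.37 for LIMS1. The calls of ABCC1, BLVRA and TUBB1 were lost in 13, 11 and 6 of 21 other settings. For ABCC1 these included leaving out any 1 array except HEL untreated replicate 3 or HEL ITF2357 replicate 2 (-0.30 to -0.22). For BLVRA they included any 1 array except HEL untreated replicate 1, UKE1 untreated replicate 2 or UKE1 ITF2357 replicate 2 (-0.43 to -0.35). For TUBB1 they were HEL untreated replicate 3, HEL ITF2357 replicate 1, UKE1 untreated replicates 1 and 3 and UKE1 ITF2357 replicates 1 and 2, each left out alone (-0.37 to -0.32). HMOX1 was the gene among these called in opposite directions in the lines.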

How the results depend on the processing

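Of 40 results (8 factors in 5 comparisons), 33 kept their direction of call in every setting run and 7 changed a call in 1 setting or more, and no called result turned its sign. The count of factors called in UKE1 was 2 as deposited and 4 after quantile normalization over all rows or over the genes tested, where 2 rose instead of 0. For the difference of responses, 2 factors instead of 1 were more negative in UKE1 after quantile normalization or median centring over all rows, with the filter on low values and with the trended, robust spread; median centring also left 0 instead of 1 more positive. BACH2 made 1 factor instead of 0 higher in untreated UKE1 after median centring over all rows or over the genes tested. With 1 array left out, the number of factors that rose in HEL was 1 to 2, the number more negative in the difference 1 to 2, and the number higher in untreated UKE1 0 to 1. The 2 scalings over the genes tested were chosen after seeing the data. With the replicate block 5 factors were called in HEL, 2 in UKE1 and 2 for the difference, as without it, and 7769, 8106 and 4274 genes instead of 7816, 8160 and 4395. It changed 4 of 130 calls of factors and named genes, those of TXNRD1 and FTL in HEL and of ABCC1 and BLVRA for the difference. The filter left out BACH2.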

Other observations

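The large MAF factors, relatives of the small MAF proteins that also carry an activating domain, were measured by 3 of 4 genes, and none was called with the drug in either line, against 42.4% and 44.3% of all genes. One call depended on the setting: NRL fell in HEL without HEL ITF2357 replicate 2 (-0.32, adjusted p = 0.0438) and after median centring over the genes tested (-0.29, adjusted p = 0.0418). MAF, a regulator of myeloid and T cells, changed by 0.04 in HEL and -0.16 in UKE1. NRL changed by -0.24 and -0.14, and MAFA by 0.02 and 0.06. In untreated cells MAF was 0.65 higher in UKE1 (adjusted p = 1.08e-05), MAFA was lower (-0.15, adjusted p = 0.0234) and NRL was not called (-0.13).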
